A study of Caenorhabditis elegans with 9 samples.

Results

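The genes of the epidermal hemidesmosome were followed across 9 RNA sequencing libraries of whole Caenorhabditis elegans larvae. The 9 genes described here, out of 46699 in the deposited gene table, were chosen by name and not by their values: let-805, mup-4, mua-3, vab-10, vab-19, pat-12, mua-6, ifb-1 and ifa-3. Earlier results of these data were known when the list was made. Hemidesmosomes of the worm, also called fibrous organelles, are attachment structures on the inner and outer face of the thin epidermis that overlies body wall muscle. Receptors on the basal side face the muscle, receptors on the apical side face the cuticle, and cytoplasmic intermediate filaments run between them, so that the pull of the muscle reaches the cuticle. The structures have to be released and rebuilt at each molt, when the old cuticle is shed.

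The larvae were sleeping in L4 lethargus, the quiet period before the last molt, and had been grown at 20 °C and picked by hand. The 9 libraries form 3 groups of 3 biological replicates: nas-38(ok3407) animals of strain HBR1010, nas-38(tm2655) animals of strain HBR1114, and wild type animals of strain N2. The product of nas-38 is an astacin protease that cells secrete, and the headers of the deposited tables call ok3407 a gain of function and tm2655 a loss of function. The labels name no transgene or further allele in any group, and each mutant group is 1 strain, so that other differences between strains cannot be told apart from the allele. Reads assigned to nas-38 were counted at 227 to 375 CPM, reads per megaread of the library, in the ok3407 libraries, at 7.56 to 14.4 CPM in the tm2655 libraries and at 57.9 to 134 CPM in wild type.

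Depth, in megareads (M) of gene reads, was 26.1 to 40.5 M in the ok3407 libraries, 28.1 to 31.5 M in tm2655 and 13.8 to 32.9 M in wild type, where replicate 1 was the shallowest of all. Apart from ifa-3, every hemidesmosome gene had at least 1027 reads in each library, so that counting error was small beside the spread between replicates. CPM values below are total gene reads, exon and intron reads together, scaled by library size with TMM factors. Levels of different genes are compared only as RPKM, the authors' reads per kilobase of exon and megaread. The 9 genes together took 0.346 to 0.406% of all gene reads in ok3407, 0.239 to 0.299% in tm2655 and 0.266 to 0.311% in wild type, before any scaling by TMM. With TMM scaling their summed level was 3205 to 3720 CPM in ok3407, 2355 to 3207 CPM in tm2655 and 2588 to 3522 CPM in wild type, so that the separation from wild type was seen without TMM scaling and the scaled sums overlapped.

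Per length, ifb-1 had the highest level of the 9 genes in every group, with a mean of 437 ± 20.2 RPKM in ok3407, 254 ± 4.2 RPKM in tm2655 and 282 ± 26.8 RPKM in wild type (SD, n = 3 each). The filament gene mua-6 came next, and its margin over the genes below it differed between groups. In ok3407 mua-6 stood at 196 ± 25.2 RPKM, apart from mup-4 at 87.9 ± 21.4 RPKM, with no overlap between the libraries of the pair. In tm2655 mua-6 was at 55.5 ± 6.4 RPKM and its libraries overlapped those of pat-12 at 48.6 ± 8.1 RPKM. In wild type mua-6 was at 79.6 ± 22.9 RPKM and overlapped mup-4 at 49.7 ± 6.3 RPKM. The receptors and linkers filled the middle of the order in all 3 groups. In ok3407 the middle ran from pat-12 at 49.7 RPKM through let-805 at 37.1, vab-10 at 29.3 and mua-3 at 21 down to vab-19 at 16.3 RPKM, where pat-12 stood clear of let-805 and every neighbour after that overlapped. In tm2655 the order below pat-12 was mup-4 at 47.9 RPKM, vab-10 at 37.4, let-805 at 22.9, vab-19 at 15.3 and mua-3 at 12.4 RPKM, and of these neighbours only vab-10 and let-805 did not overlap. In wild type it was pat-12 at 46.9 RPKM below mup-4, then vab-10 at 38, let-805 at 26.3, vab-19 at 18.7 and mua-3 at 13.4 RPKM. The lower end of the wild type order, from vab-10 down, had no overlapping neighbours. Last in every group was ifa-3, at 0.10 to 0.36 RPKM in the 9 libraries.

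**Figure D1:**
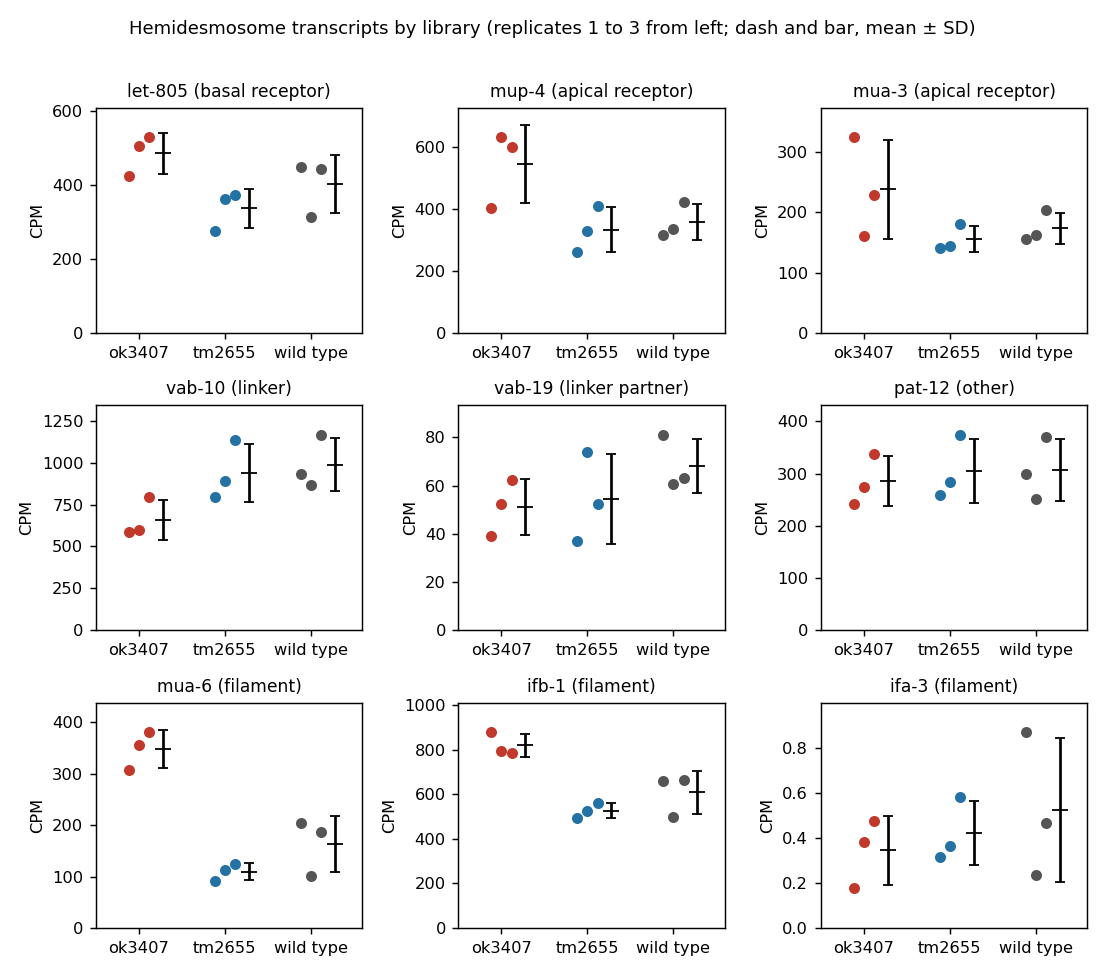
Level of each hemidesmosome gene in CPM (vertical axes, linear and starting at 0) in each of the 9 libraries, with replicates 1 to 3 from left to right and the mean ± SD beside them. The ok3407 libraries of mua-6 lie at 308 to 381 CPM, above all libraries of the other groups, while those of vab-10 lie at 586 to 795 CPM, below all of them in wild type.

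Of the 9 genes, 1 rose in ok3407 against wild type and 0 fell, by edgeR's quasi-likelihood test with Benjamini-Hochberg adjusted p under 0.05 over 16055 genes. The gene was mua-6. Over all genes tested 6.23% passed, 3.33% higher and 2.91% lower in ok3407, and 1 gene in 9 is too few to set the list apart from that background. At an unadjusted p under 0.05, 4 of the 9 genes passed (mua-6, vab-10, ifb-1 and mup-4), against 23.6% of all genes. The libraries of ok3407 and wild type did not overlap for 3 of the 9 genes. They were higher in ok3407 for mua-6 and ifb-1, as for 14.4% of all genes, and lower for vab-10, as for 14.5%. The median change of the 9 genes was 0.27 on the log2 scale, beside 0.03 over all genes tested. In tm2655 against wild type 0 of the 9 genes passed, with 0.00623% of all genes called, which was 1 gene. The mutated gene nas-38 was not called there either (edgeR adjusted p = 0.316), and it passed under 1 of the 20 alternatives described below. Its fitted level in tm2655 was 0.125 of that in wild type, and the libraries did not overlap. A missing call in this comparison therefore does not show that a gene was unchanged. At an unadjusted p under 0.05, 1 of the 9 genes passed there by edgeR, against 2.47% of all genes. By DESeq2's adjusted p, 0 of the 9 passed, with 0.0183% of genes called, and for 0 of the 9 did the libraries of tm2655 and wild type separate, against 6.47% of all genes. All 9 fitted changes in tm2655 were negative, with a median of -0.21 beside 0.01 over all genes. Between the alleles, ok3407 against tm2655, 2 of the 9 genes rose, mua-6 and ifb-1, and 0 fell, with 4.02% of all genes called, 2.33% higher and 1.69% lower. The groups did not overlap for 3 genes, all higher in ok3407 (mua-6, ifb-1 and let-805), as were 11.2% of all genes, and 6 of the 9 had an unadjusted p under 0.05, against 17.6% of all genes. The median change of the 9 genes there was 0.53, beside 0.01 over all genes. These 3 comparisons share libraries with one another, the wild type libraries between the mutant comparisons and the mutant libraries with the comparison of the alleles, so they are not independent of each other.

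The intermediate filaments are the cables between the inner and outer plaque. The gene mua-6 (WBGene00003485) encodes the filament protein IFA-2, whose loss detaches muscle from the cuticle; it lies on chromosome X at 16262481 to 16265681 on the minus strand, with 6 exons and 1746 bases of coding length. It stood at 308, 356 and 381 CPM in the ok3407 libraries, at 91.1, 113 and 124 CPM in tm2655 and at 204, 102 and 186 CPM in wild type. Every ok3407 library was above every library of the other groups, and wild type replicate 2 lay within the tm2655 range. In ok3407 against wild type mua-6 rose 2.13-fold, by 1.09 ± 0.24 on the log2 scale (SE, edgeR adjusted p = 0.0321, higher in 3 of 3 libraries). The call was lost, at adjusted p of 0.0504 to 0.0994 and changes of 1.02 to 1.19, without ok3407 replicate 1, 2 or 3 or without wild type replicate 3, and it was kept at 9 libraries under all scalings tried. It was also lost when the 6 libraries of the comparison were fitted alone (1.09, edgeR adjusted p = 0.0552). Against tm2655 the rise was 3.18-fold, by 1.67 ± 0.24 (edgeR adjusted p = 0.0068), and this call was kept without any 1 of the 9 libraries. The loss-of-function allele gave a change of -0.58 ± 0.24 against wild type, with an edgeR p of 0.0358 unadjusted and an adjusted p of 0.998. In the authors' deposited table of ok3407 against wild type mua-6 was the 1 hemidesmosome gene among 925 listed, which are 1.98% of the gene table, with a fold change of 2.13 and a corrected p-value of 0.00809. Every gene listed there changed at least 2.00-fold, up or down. By edgeR no other member changed that far, so the absence of the others says nothing about their p-values. The authors' deposited table of tm2655 against wild type held 0 of the 9 among its 7 genes, or 0.015% of the gene table, all changed at least 2.39-fold.

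The partner filament gene ifb-1 (WBGene00002053; chromosome II, 5765642 to 5771691, plus strand, 1810 bases of coding length) encodes the filament subunit that pairs with the A-type subunits such as IFA-2. Its level was 879, 796 and 786 CPM in ok3407, 494, 526 and 560 CPM in tm2655 and 660, 499 and 666 CPM in wild type. All ok3407 libraries were above all others, and the tm2655 and wild type ranges overlapped. The 1.56-fold rise in ok3407 against tm2655 passed the test, with a log2 change of 0.64 ± 0.14 and an edgeR adjusted p of 0.0363. Leaving out 1 library ended that call in 8 of 9 fits, at changes of 0.59 to 0.69 and edgeR adjusted p of 0.0505 to 0.12, and it was kept without wild type replicate 2. Against wild type the change in ok3407 was 0.43 ± 0.14, at an edgeR adjusted p of 0.102. With plain library totals in place of TMM factors that change was 0.66 (edgeR adjusted p = 0.00754), and by limma on log2 RPKM 0.63 (limma adjusted p = 0.00916). The change in tm2655 against wild type was -0.21 ± 0.14.

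The third filament gene, ifa-3 (WBGene00002051; chromosome X, 16267494 to 16270051, minus strand), encodes an A-type subunit that acts in the embryo and lies 1812 bases from mua-6, with the same coding length. It had 5, 13 and 21 reads in ok3407, 9, 11 and 17 in tm2655 and 11, 8 and 10 in wild type. Of those reads 20.0 to 76.9% were unique to the gene, compared with 100% for mua-6 and ifb-1, and reads shared with similar filament genes make the value uncertain. The groups overlapped, and no change was detectable at this depth (-0.49 ± 0.61 in ok3407 against wild type, edgeR adjusted p = 0.679).

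The basal receptor is LET-805, or myotactin, a transmembrane protein on the muscle side of the epidermis. Its gene let-805 (WBGene00002915; chromosome III, 2658096 to 2680723, plus strand, 13507 bases of coding length) stood at 424, 505 and 530 CPM in ok3407, 277, 361 and 373 CPM in tm2655 and 450, 313 and 444 CPM in wild type. The ok3407 libraries lay above all tm2655 libraries and overlapped wild type, where replicate 2 was low as it was for mua-6 and ifb-1. The change was 0.53 ± 0.18 in ok3407 against tm2655 (edgeR adjusted p = 0.15) and 0.27 ± 0.18 against wild type (edgeR adjusted p = 0.394). Between tm2655 and wild type it was -0.25 ± 0.18. With plain library totals the change against tm2655 was 0.71 and passed, at an edgeR adjusted p of 0.026.

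The apical receptors MUP-4 and MUA-3 are related transmembrane proteins on the cuticle side. The gene mup-4 (WBGene00003497; chromosome III, 7480074 to 7489062, minus strand, 6315 bases of coding length) was at 402, 632 and 601 CPM in ok3407, 262, 329 and 408 CPM in tm2655 and 317, 335 and 424 CPM in wild type. Replicates 2 and 3 of ok3407 lay above all other libraries and replicate 1 within both other ranges. The change of mup-4 was 0.60 ± 0.22 against wild type (edgeR adjusted p = 0.131) and 0.71 ± 0.22 against tm2655 (edgeR adjusted p = 0.108). With plain library totals both passed, at 0.83 (edgeR adjusted p = 0.0406) and 0.90 (edgeR adjusted p = 0.0369). Between tm2655 and wild type it was -0.11 ± 0.22. The gene mua-3 (WBGene00003482; chromosome III, 10160697 to 10183260, plus strand, 11392 bases of coding length) was at 324, 161 and 227 CPM in ok3407, 141, 145 and 180 CPM in tm2655 and 155, 161 and 203 CPM in wild type. Here ok3407 replicate 1, the lowest of its group for mup-4, was the highest, and replicate 2 lay inside the wild type range. The change of mua-3 against wild type was 0.46 ± 0.23 (edgeR adjusted p = 0.278), against tm2655 0.61 ± 0.23 (edgeR adjusted p = 0.206), and -0.16 ± 0.23 in tm2655 against wild type.

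The spectraplakin gene vab-10 (WBGene00006876) encodes a large linker whose A isoforms join the receptors to the filaments, while its B isoforms bind actin and microtubules. The deposited gene model spans chromosome I from 11747762 to 11792066 on the minus strand, with 22035 bases of coding length. In WBcel235 the coding span of vab-10 runs 12925 bases further, on the 5′ side, and that stretch lies outside the deposited model. Of 9 annotated transcripts 4 were listed as detected in every library, and the deposited gene values do not separate A from B isoforms. Its level was 586, 596 and 795 CPM in ok3407, 794, 889 and 1132 CPM in tm2655 and 934, 864 and 1167 CPM in wild type. All ok3407 libraries were below all wild type libraries, and ok3407 replicate 3 reached the lowest tm2655 library. Its change was -0.58 ± 0.19 against wild type (edgeR adjusted p = 0.101) and -0.51 ± 0.19 against tm2655 (edgeR adjusted p = 0.189), and -0.07 ± 0.19 in tm2655 against wild type. By DESeq2 the vab-10 change against wild type passed, at -0.60 with an adjusted p of 0.0484. It passed under 2 of 20 alternatives, at changes of -0.74 to -0.36 over all 20, and in 0 of 9 fits without 1 library.

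Further proteins act at the plaques. VAB-19, an ankyrin repeat protein of the Kank family, keeps the attachments aligned over muscle and limits actin there. Its gene vab-19 (WBGene00006882; chromosome II, 2443292 to 2450912, plus strand, 3123 bases of coding length) was at 39.0, 52.3 and 62.4 CPM in ok3407, 37.2, 74.0 and 52.2 CPM in tm2655 and 81.2, 60.5 and 63.2 CPM in wild type. All groups overlapped, and the change in ok3407 against wild type was -0.41 ± 0.26 (edgeR adjusted p = 0.367). The gene pat-12 (WBGene00003936; chromosome III, 727639 to 752400, minus strand, 5655 bases of coding length) encodes a hemidesmosome protein that embryos need in order to elongate past the stage at which muscle begins to pull. It was at 243, 275 and 337 CPM in ok3407, 258, 284 and 375 CPM in tm2655 and 299, 252 and 369 CPM in wild type. Its changes were the smallest of the 9 in both mutant comparisons with wild type, -0.10 ± 0.20 in ok3407 and -0.0042 ± 0.20 in tm2655. The approximate interval of the change in ok3407 against wild type ran from -0.49 to 0.28 (nominal 95%, normal multiplier of the SE). With so few libraries it is narrower than an interval from the t distribution. With plain library totals the sign of the change turned, to 0.12. Of 12 annotated pat-12 transcripts, 7 to 9 were listed as detected.

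**Figure D2:**
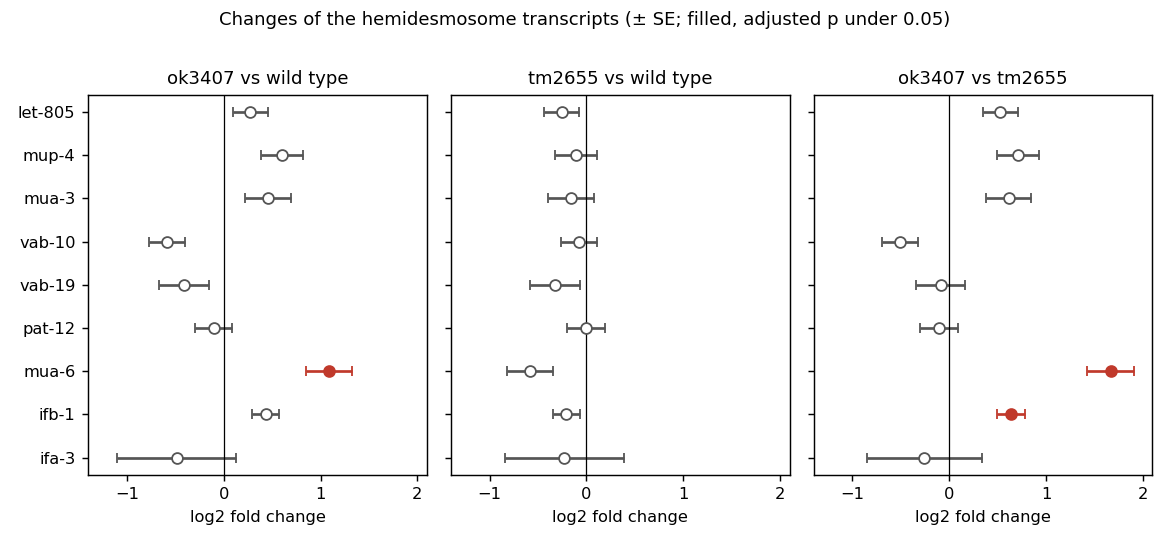
Fitted log2 fold change ± SE (horizontal axes) of the 9 hemidesmosome genes in the 3 comparisons, from edgeR on all 9 libraries; filled points passed an adjusted p of 0.05. Filament and receptor genes other than ifa-3 lie right of 0 in both ok3407 panels, where mua-6 is at 1.09 and 1.67, while vab-10 lies left of 0 at -0.58 and -0.51; the points of tm2655 against wild type lie between -0.58 and -0.0042.

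The ratio of a pair of transcripts within a library does not depend on how libraries are scaled. In all, 6 ratios of RPKM were compared, and an exact two-sided permutation test of 3 against 3 libraries cannot go below p = 0.1. These pairs were picked from all possible pairs without a stated rule, and the adjustment covers only the 6. The 3 ratios over vab-10 all carry its lower level in ok3407, so their separations are not independent. The level of mup-4 relative to vab-10 was 2.49, 3.84 and 2.73 in ok3407, 1.19, 1.33 and 1.30 in tm2655 and 1.20, 1.41 and 1.31 in wild type. No ok3407 library overlapped either other group, while tm2655 and wild type overlapped (p = 0.1 for ok3407 against each, exact permutation, 0.15 adjusted over the 6 ratios). On the log2 scale the ratio was 1.19 higher in ok3407 than in wild type. The level of let-805 relative to vab-10 averaged 1.28 ± 0.16 in ok3407, 0.616 ± 0.067 in tm2655 and 0.694 ± 0.103 in wild type (SD, n = 3, exact permutation p = 0.1 for ok3407 against each). The level of pat-12 relative to vab-10 was 1.65, 1.82 and 1.64 in ok3407, 1.30, 1.26 and 1.33 in tm2655 and 1.25, 1.17 and 1.27 in wild type (exact permutation p = 0.1 for ok3407 against each). The filament ratio of mua-6 to ifb-1 was 0.366, 0.474 and 0.516 in ok3407, 0.193, 0.226 and 0.236 in tm2655 and 0.328, 0.215 and 0.294 in wild type, again separate in ok3407 (exact permutation p = 0.1 against each). The ratios of mup-4 to let-805 and of mua-3 to mup-4 overlapped between ok3407 and both other groups. The ratio of mua-3 to mup-4 ranged from 0.141 to 0.444 in ok3407, against 0.244 to 0.298 in tm2655 and 0.265 to 0.274 in wild type. In ok3407 it was 0.444 in replicate 1 and 0.141 and 0.210 in replicates 2 and 3. The difference in spread between the groups was not tested.

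**Figure D3:**
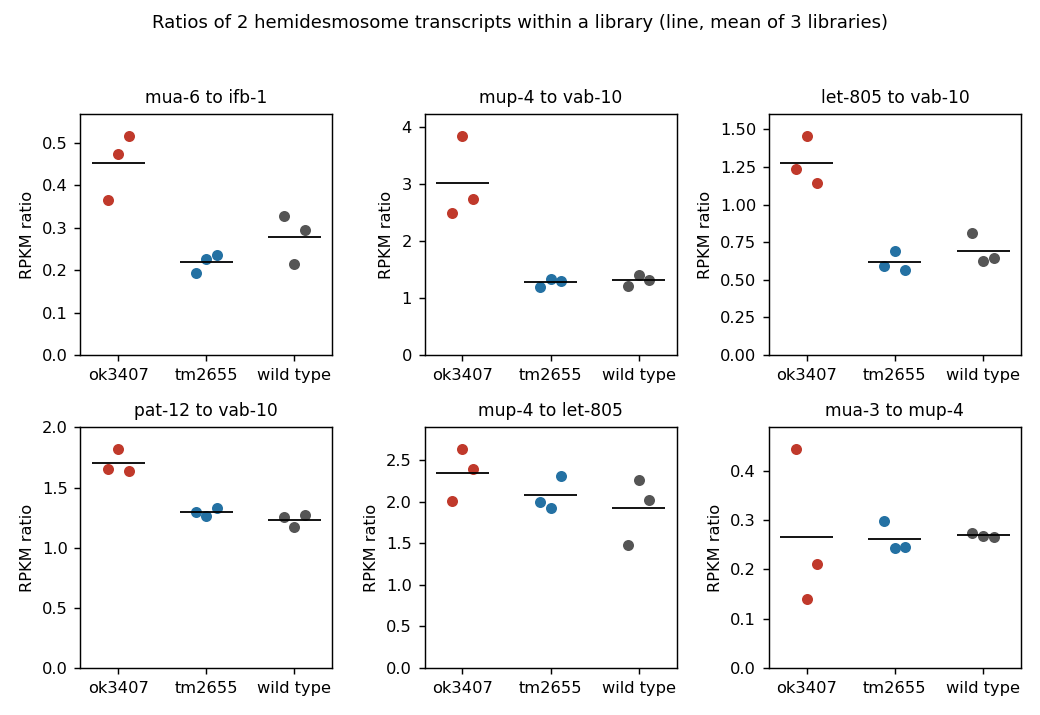
RPKM ratio of 2 hemidesmosome transcripts within each library (vertical axes, linear and starting at 0), with the mean of 3 libraries as a line. The 3 ratios over vab-10 and the ratio of mua-6 to ifb-1 are higher in every ok3407 library than in any other library, and the ratios of mup-4 to let-805 and of mua-3 to mup-4 overlap between the groups.

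The genes did not vary as 1 unit across the 9 libraries. The highest correlations of log2 CPM were between mua-6 and ifb-1 (Pearson r = 0.97) and between let-805 and mua-6 (r = 0.92), followed by let-805 with ifb-1 (r = 0.85) and let-805 with mup-4 (r = 0.83). With group means removed, r was 0.82 for mua-6 with ifb-1 and 0.95 for let-805 with mua-6. For mup-4 with ifb-1 it was 0.12 within groups, against 0.73 over all libraries. Over the libraries vab-10 ran against mua-6 (r = -0.52) and ifb-1 (r = -0.54), but within groups its correlation with mua-6 was 0.62 and with pat-12 0.97. Within groups every pair without mua-3 had a positive r. The negative ones were mua-3 with vab-19 (-0.33), with ifa-3 (-0.27), with mup-4 (-0.20) and with let-805 (-0.05). The points of these correlations are 9 libraries that fall into 3 groups, and each gene's value in a library shares that library's scaling factor, so the correlations describe these libraries only. The r of a member with the mean profile of the other members ran from -0.015 for vab-10 to 0.89 for let-805, so that mean does not stand for every member. The 5 of 8908 compared genes most like the mean profile of the 9 were dmd-6 (r = 0.95), H08J11.2 (r = 0.94), sup-37, R11.2 and T24B8.3 (r = 0.90 to 0.91). None of these 5 passed in any comparison. On log2 RPKM 4 of them ranked 1 to 4, and R11.2 ranked 198. Most like mua-6 were F59F4.3 (r = 0.98), C45B2.8 (r = 0.96) and the collagen gene col-182 (r = 0.95). Most like let-805 were lim-7, klf-3 and dmd-7 (r = 0.92 to 0.94), of which lim-7 ranked 40 on log2 RPKM.

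Reads over introns and splice junctions describe the same transcripts in another way, and the libraries differed in both over all genes. Intron reads made up 9.90 to 11.4% of all gene reads in ok3407, 8.78 to 9.31% in tm2655 and 8.83 to 9.34% in wild type. Exon reads that crossed a junction made up 42.3 to 43.9% of all exon reads in ok3407, 39.1 to 40.1% in tm2655 and 38.1 to 40.5% in wild type. Both shares were above those of every other library in all ok3407 libraries, and their part in the gene values was not tested. Intron reads were 4.17 to 5.60% of mua-6 gene reads in ok3407, 3.92 to 4.03% in tm2655 and 3.42 to 4.36% in wild type, so that the ok3407 and wild type ranges overlapped. For ifb-1 the intron share was 6.55 to 6.58% in ok3407, above the 4.85 to 6.28% of tm2655 and the 5.32 to 5.93% of wild type. For pat-12 it was 3.09 to 5.71% in ok3407, against 2.09 to 3.13% in tm2655 and 1.76 to 2.99% in wild type. The share of vab-10 exon reads that crossed a junction was 8.54 to 9.72% in ok3407, 6.78 to 8.32% in tm2655 and 7.25 to 8.00% in wild type, with no overlap between ok3407 and the others. These genes were picked for mention after their shares were seen. Of the 2 annotated mua-3 transcripts, 0 were listed as detected in each tm2655 library, 2 in ok3407 replicate 3 and 1 in each other library. This listing did not follow the reads: mua-3 had 3968 to 5204 exon reads in the tm2655 libraries and 1944 in wild type replicate 1.

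Of 11 genes whose products act on or with hemidesmosomes, all tested, 0 rose and 1 fell in ok3407 against wild type. Their fitted changes were positive for 4 and negative for 7, with a median of -0.35. The gene that fell was smo-1, which encodes SUMO, the small modifier known to act on the filament protein IFB-1. It stood at 59.9 ± 6.5 CPM in ok3407 and 87.2 ± 9.6 CPM in wild type (SD, n = 3 each), a change of -0.54 ± 0.13 (edgeR adjusted p = 0.0407), and with plain library totals the change was -0.32 and missed the threshold at an edgeR adjusted p of 0.171. The call was kept in 3 of 9 fits without 1 library. The SUMO conjugating enzyme gene ubc-9 was at -0.35 ± 0.11 (edgeR adjusted p = 0.0844). The transcription factor gene sta-2, whose protein is known to sit at hemidesmosomes and to drive epidermal antimicrobial genes when they are damaged, was at 22.3 ± 7.4 CPM in ok3407 and 8.33 ± 0.81 CPM in wild type. The ok3407 and wild type libraries did not overlap, and its change of 1.42 ± 0.40 did not pass (edgeR adjusted p = 0.0679). The change passed by DESeq2, by limma on log2 RPKM, in a 6-library fit, with a replicate block and without tm2655 replicate 1. With plain library totals it did not. In tm2655 sta-2 was at 13.2 ± 7.9 CPM, and those libraries overlapped both other groups. Both sta-2 and ubc-9 were picked for mention after their values were seen.

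Of 8 other cytoplasmic intermediate filament genes, most of them known from the intestine, 0 passed in ok3407 against wild type, and 7 of the 8 changes were negative, with a median of -0.41. The exception was ifa-1, another A-type filament gene of epithelia, at 361 ± 44.2 CPM in ok3407 and 260 ± 29.1 CPM in wild type (0.47 ± 0.13, edgeR adjusted p = 0.0639). Against tm2655, where it averaged 246 ± 9.4 CPM, ifa-1 rose by 0.55 ± 0.13 (edgeR adjusted p = 0.0476), just inside the threshold. The intestinal filament gene ifd-2 fell by 0.88 in the same comparison, to 51.6 ± 15.7 CPM in ok3407, against 95 ± 9.4 CPM in tm2655 (edgeR adjusted p = 0.0452). Each of these calls was lost under 13 of 20 alternatives and was kept in 1 of 9 fits without 1 library, at ifa-1 changes of 0.45 to 0.73 and ifd-2 changes of -1.06 to -0.65 over all 20. In both comparisons of ok3407 mua-6, ifb-1 and ifa-1 were therefore the filament genes with positive fitted values and the other 8 had negative ones.

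The other epithelial attachment, the apical junction, held 10 listed genes, of which 3 rose and 0 fell in ok3407 against wild type, with a median of 0.16. These were dlg-1, the Discs large scaffold, hmr-1, the cadherin, and hmp-1, the alpha-catenin. The level of dlg-1 was 127 ± 16.8 CPM in ok3407 and 67.0 ± 10.7 CPM in wild type (0.92 ± 0.15, edgeR adjusted p = 0.0109). For hmr-1 it was 143 ± 10.2 CPM in ok3407 and 100 ± 11.8 CPM in wild type (0.51 ± 0.12, edgeR adjusted p = 0.0341), and for hmp-1 96.6 ± 17.1 CPM in ok3407 and 53.7 ± 5.5 CPM in wild type (0.85 ± 0.18, edgeR adjusted p = 0.0274). Against tm2655 dlg-1 and hmr-1 rose as well, by 0.82 and 0.62. In fits without 1 library the calls against wild type were kept in 8 of 9 for dlg-1, 5 for hmp-1 and 3 for hmr-1, and 0 of the 10 passed without wild type replicate 3. On the muscle side of the attachment, 10 genes of dense bodies and their matrix all had negative changes in ok3407 against wild type, with a median of -0.52. Of these 2 fell: pat-4, the integrin-linked kinase, by 0.66 (edgeR adjusted p = 0.0451) and unc-95, a LIM protein of dense bodies, by 1.12 (edgeR adjusted p = 0.0194). The pat-4 call was lost under 14 of 20 alternatives, plain library totals among them, and kept in 1 of 9 fits without 1 library, and the unc-95 call was kept in 5 of 9.

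**Figure D4:**
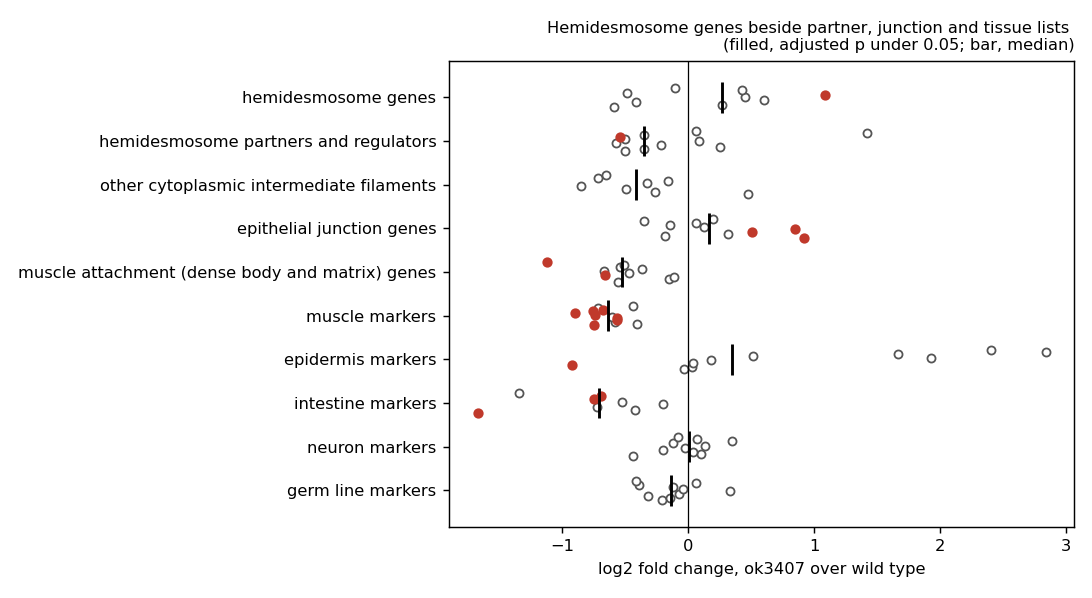
Log2 fold change in ok3407 over wild type (horizontal axis) of the 9 hemidesmosome genes and of each gene of 9 comparison lists, filled where the edgeR adjusted p was under 0.05, with the list median as a bar. The bar of the hemidesmosome genes is at 0.27, those of muscle and intestine markers are at -0.64 and -0.70, and that of epidermis markers is at 0.35 with a wide spread.

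The summed levels of the muscle and intestine markers were lower in every ok3407 library than in any other library. In samples of whole animals, fewer cells of a type and less RNA per cell cannot be told apart. Of 12 muscle markers 7 fell and 0 rose in ok3407 against wild type, with a summed level of 11888 to 13367 CPM in ok3407, 15666 to 19964 CPM in tm2655 and 16976 to 21636 CPM in wild type. Those that fell were unc-54, unc-22, unc-89, mup-2, tnt-2, tnt-3 and unc-27, by 0.56 to 0.89. With plain library totals 3 of them fell (unc-54, tnt-2 and tnt-3), and without 1 library 0 to 9 of the 12 did, 0 without ok3407 replicate 2 or wild type replicate 3 and 9 without wild type replicate 2. Of 8 intestine markers 3 fell, act-5 by 1.67, asp-3 by 0.74 and spl-1 by 0.69, with act-5 and asp-3 left under plain library totals and act-5 kept in 9 of 9 fits without 1 library. The intestine list summed to 2294 to 2571 CPM in ok3407, 3971 to 5105 CPM in tm2655 and 4015 to 5741 CPM in wild type. Of 10 epidermis markers 1 fell, the transcription factor gene elt-3, by 0.92 (edgeR adjusted p = 0.039), and 0 rose. Most went the other way: 8 of the 10 fitted changes were positive and 2 negative, with a median of 0.35. Against tm2655 9 were positive and 1 negative, with a median of 0.72. By DESeq2 3 of the markers rose against wild type and 1 fell, with 11.8% of genes called. The elt-3 call was lost with plain library totals and kept in 3 of 9 fits without 1 library. The epidermis list summed to 140 to 220 CPM in ok3407, 132 to 160 CPM in tm2655 and 155 to 169 CPM in wild type. Its secreted and cuticle-related members were spread widely among the ok3407 libraries, such as wrt-10 at 7.67 ± 11 CPM in ok3407 and 1.47 ± 0.37 CPM in wild type, a gene picked for mention after its values were seen. Against tm2655, tnt-3 fell by 0.82, act-5 by 1.47, spl-1 by 0.72 and elt-3 by 0.94 in ok3407. Of 10 neuron markers and of 10 germ line markers 0 passed in any comparison with TMM factors, while syp-1 of the germ line rose in ok3407 against wild type with plain library totals, and none of the lists had a member at 0 in all libraries. The part of these marker levels in the values of the hemidesmosome genes was not tested. In ok3407 against wild type the neuron markers with the smallest p were rab-3 at -0.44 and unc-104 at 0.35, and those of the germ line were syp-1 at 0.33 and glh-1 at -0.32. Between tm2655 and wild type they were unc-104 at 0.21 and snb-1 at -0.12, and pgl-1 at -0.14 and glh-1 at -0.13. No gene of these 9 lists passed in tm2655 against wild type.

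The choice of library totals in place of TMM factors moved the median change of all genes by 0.21 in ok3407 against wild type and raised the share of higher calls over the whole table to 81.9%, beside 53.3% with TMM factors. In ok3407 against tm2655 that share was 76.9%, beside 58.0% with TMM factors. With RLE or upper quartile factors the counts of hemidesmosome genes called were those given above. With plain library totals 3 of the 9 hemidesmosome genes rose in ok3407 against wild type (mua-6, ifb-1 and mup-4), with 5.76% of all genes called, and 4 rose against tm2655 (mua-6, ifb-1, mup-4 and let-805), with 3.76% called. In ok3407 against wild type DESeq2 called 2 of the 9, mua-6 higher and vab-10 lower, with 11.8% of genes called. In the same comparison limma on log2 RPKM called mua-6 and ifb-1, with 5.94% of genes called, and a fit of the 6 libraries alone called 0 of the 9, with 5.17%.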

How the data were processed

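Whole L4 larvae were sequenced as stranded mRNA, 75-cycle paired-end libraries, per the labels. The authors deposited raw read counts per gene (unique and total gene, exon, junction and intron reads) and RPKM, per the file headers. Their comparison tables hold a p-value, a corrected p-value and a signed fold change used as a score (EDGE test), per the file headers. The sources used here name no aligner, counter, strand setting or build. The deposited gene starts and ends equal the coding span in WBcel235 for 92.7% of 18202 coding genes and 8 of the 9 members, and coordinates are those of the deposited tables. Reads in untranslated regions were therefore outside these gene models. In all, 183 columns of per-sample values were not used.

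Total gene reads of all 9 libraries were fitted in edgeR 4.0.16 (R 4.3.3; filterByExpr, TMM, robust quasi-likelihood, 1 term per group), with p-values adjusted over 16055 genes and called under 0.05. All 9 members passed the filter. The labels give no batch. The members and the gene lists were chosen with earlier results of these data known. Named were all 9 members, nas-38, every gene of the lists past the threshold, the 2 with the smallest p against wild type where a list had none in any comparison (the neuron and germ line lists), and the genes most like the members in log2 CPM among those of at least 10 CPM on average. Alternatives were RLE and upper quartile factors, plain library totals, no filter, a filter of 5 CPM in 3 libraries, a replicate block, DESeq2 1.42.0, limma 3.58.1 on log2(RPKM + 1), 6-library fits, exon or unique reads alone and each library left out. Intervals and test errors cover the spread between 3 libraries per group, which edgeR estimated over all 9 libraries together and moderated across genes. The script was tested on simulated data. No sequences were read.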

Additional observations from a re-analysis of the deposited data

How the results depend on the processing

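Depth differed most within wild type, from 13.8 to 32.9 M gene reads. Of 534 changes of the 9 genes refitted under an alternative, 486 kept their direction and side of the threshold, 14 lost a call, 8 gained one and 26, none of them called, turned sign. Of 720 refits of other named genes 532 kept both, 186 lost a call, 2 gained one and 0 turned sign. The ratios within a library, recomputed from total gene reads and without each library (alternatives chosen after seeing the data), moved by less than their spread in all 126 cases. The cause of the moves below was not tested.

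With plain library totals 3 of the 9 genes passed in ok3407 against wild type and 4 against tm2655. In the comparison with wild type mup-4 was then at 0.83, ifb-1 at 0.66 and pat-12 at 0.12, and in that with tm2655 let-805 was at 0.71, mup-4 at 0.90, vab-19 at 0.094 and pat-12 at 0.081. Fitted that way, pat-12 in tm2655 against wild type was at 0.043, and it was at 0.0034 with no filter and 0.0097 with the stricter filter. By limma on log2 RPKM 2 of the 9 passed in ok3407 against wild type, with ifb-1 at 0.63 and pat-12 at 0.078. There pat-12 was at 0.046 in tm2655 against wild type and, in ok3407 against tm2655, at 0.032 beside vab-19 at 0.099. DESeq2 called 2 of the 9 in ok3407 against wild type, vab-10 at -0.60 among them, and among all genes it called 1972 there (1001 by edgeR), 1441 in ok3407 against tm2655 (645 by edgeR) and 4 in tm2655 against wild type (1 by edgeR). Fitting 6 libraries alone left 0 of the 9 in ok3407 against wild type, with mua-6 at 1.09, and 390 genes over the whole table in ok3407 against tm2655. The 1 gene called in tm2655 against wild type was lost, leaving 0, with the stricter filter, exon reads only or the replicate block.

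With the replicate number as a block 2 of the 9 passed in ok3407 against wild type, mua-6 and vab-10 (-0.59, edgeR adjusted p = 0.0335). Over all genes 883 of the 16055 tested passed in that fit. In ok3407 against tm2655 mup-4 passed at 0.71 (edgeR adjusted p = 0.0353) and ifb-1 at 0.64 did not (edgeR adjusted p = 0.0507). Same-numbered libraries did not deviate together in every pair. The correlation of their deviations was -0.20, 0.054 and -0.24 between ok3407 and wild type. It was 0.032, 0.019 and 0.40 between tm2655 and wild type and 0.14, 0.0045 and -0.11 between ok3407 and tm2655. With 3 libraries per group these values cannot show whether the replicates were paired, and the labels state no pairing.

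Without 1 library at a time, 0 to 1 of the 9 genes passed in ok3407 against wild type and 1 to 2 in ok3407 against tm2655. Among all genes, 123 to 1163 passed in ok3407 against wild type (123 without wild type replicate 3), 222 to 623 in ok3407 against tm2655 (222 without tm2655 replicate 3) and 0 to 1 in tm2655 against wild type. In ok3407 against wild type mua-6 ranged from 0.83 to 1.27, mua-3 from 0.16 (without ok3407 replicate 1) to 0.65, ifa-3 from -0.90 to 0.029 and pat-12 from -0.24 to 0.050. In tm2655 against wild type vab-10 ranged from -0.23 to 0.062, mup-4 from -0.28 to 0.040, pat-12 from -0.18 to 0.15 and ifa-3 from -0.65 to 0.29. In ok3407 against tm2655 ifb-1 ranged from 0.59 to 0.69, mua-3 from 0.32 (without ok3407 replicate 1) to 0.82, vab-19 from -0.30 to 0.20, ifa-3 from -0.56 to 0.048 and pat-12 from -0.24 to 0.072.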
